A study of Mus musculus with 20 samples.

Results

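Colonic differentiated cells of SPF mice (read here as specific-pathogen-free, mice that carry a microbiota) were compared between 15 and 3 weeks of age over every region of the authors' table of DNA methylation. The comparison used 4 of the 20 samples, taken by their titles and age labels, with 1 male and 1 female at each age, and all 1195 regions. All samples came from C57BL/6J mice of the genotype Lgr5EGFP-IRES-CreERT2, a knock-in that puts green fluorescent protein and an inducible Cre under the Lgr5 gene, a marker of intestinal stem cells. The labels name no agent beside the housing, and how differentiated cells were parted from stem cells is not stated in the sources at hand. The groups set beside them were SPF stem cells (2 samples at each age) and differentiated cells of GF mice, read here as germ-free (2 samples at 3 weeks and 4 at 15 weeks), of the same strain and genotype. The assay was whole-genome bisulfite sequencing, and the deposited value of a region in a sample is a methylation fraction (0, no cytosine methylated; 1, all methylated).

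Most methylated cytosines of the mouse genome sit next to a guanine, at CpG sites. Enhancers and promoters bound by transcription factors tend to have low methylation, while most other sequence has a high level, and a level between these extremes in a bulk sample can reflect a mix of cells. The colonic epithelium is renewed from stem cells at the base of the crypts, whose daughters differentiate into absorptive, mucus-secreting and hormone-secreting cells. Weaning, close to the earlier of the ages compared here, is when a solid diet and a rapidly changing microbiota reach the colon.

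All 1195 regions carry a negative deposited difference in the authors' deposited table, from -0.555 to -0.100, and no label says which groups it sets apart. Across regions it followed the difference between SPF and GF stem cells at 15 weeks (Pearson r = 0.888) more closely than the same difference in differentiated cells (r = 0.676) or the age difference in SPF differentiated cells (r = 0.515). These are descriptions over regions that share libraries. The regions may therefore have been picked for low methylation in SPF stem cells at 15 weeks. The direction of the age change in SPF stem and differentiated cells is then not independent of how the table was made. Nor is that of any difference from GF cells at 15 weeks. The 15-week SPF samples also carry an identifier ending, Co, that the 3-week samples lack, and in SPF cells age and that ending cannot be told apart. Only some of the 15-week GF differentiated samples carry it. The ending therefore also enters the comparison of age changes between SPF and GF cells. No coverage is given, so the depth behind a fraction is unknown. The differentiated identity could not be checked here, since 0 of 13 epithelial and 0 of 7 immune marker genes had a region, and of 6 stromal and endothelial markers Acta2 and Pecam1 had 1 each.

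Of the listed regions, 13 cover a whole promoter window of the RefSeq annotation (GRCm38.p6, the same build as mm10; 250 bases before a transcription start to 50 after it), and 4 of these windows are printed to show the sequence behind a large, a middle-sized and an undetected change. Apobec3 and Ifitm3 are antiviral genes, Tmem252 encodes a transmembrane protein, and 3300002A11Rik is a RefSeq gene whose start lies in a region inside Foxn3, a forkhead transcription factor. Every CpG is in capitals, on the strand of the gene, 5′ to 3′, and the windows are chr15:79894773-79895072 (+), chr7:141010695-141010994 (-), chr19:24673758-24674057 (+) and chr12:99340781-99341080 (+), in that order.
Apobec3: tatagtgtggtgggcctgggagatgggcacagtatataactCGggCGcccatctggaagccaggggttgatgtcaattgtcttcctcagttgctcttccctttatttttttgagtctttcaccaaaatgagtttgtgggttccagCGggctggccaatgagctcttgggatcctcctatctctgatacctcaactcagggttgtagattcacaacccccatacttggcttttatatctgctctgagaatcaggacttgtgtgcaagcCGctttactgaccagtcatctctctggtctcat
Ifitm3: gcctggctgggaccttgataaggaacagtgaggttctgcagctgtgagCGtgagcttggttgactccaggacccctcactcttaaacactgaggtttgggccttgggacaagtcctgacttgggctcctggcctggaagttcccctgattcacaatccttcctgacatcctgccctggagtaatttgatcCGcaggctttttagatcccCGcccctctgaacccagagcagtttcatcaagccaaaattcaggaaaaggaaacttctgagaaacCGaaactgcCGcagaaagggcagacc
Tmem252: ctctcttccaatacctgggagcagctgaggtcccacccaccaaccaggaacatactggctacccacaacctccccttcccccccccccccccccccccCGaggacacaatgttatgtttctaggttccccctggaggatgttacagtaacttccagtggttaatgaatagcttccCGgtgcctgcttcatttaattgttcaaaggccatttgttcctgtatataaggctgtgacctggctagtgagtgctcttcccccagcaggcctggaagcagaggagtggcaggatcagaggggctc
3300002A11Rik: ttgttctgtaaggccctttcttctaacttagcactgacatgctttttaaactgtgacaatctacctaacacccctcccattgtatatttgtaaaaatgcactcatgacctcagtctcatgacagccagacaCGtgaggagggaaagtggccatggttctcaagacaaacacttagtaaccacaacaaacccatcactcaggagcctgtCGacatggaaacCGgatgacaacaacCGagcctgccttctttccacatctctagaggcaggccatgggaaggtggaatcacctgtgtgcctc
The windows hold 4, 5, 2 and 4 CpGs, against a median of 7 over all RefSeq promoter windows. The fractions below are means over a whole region, not over the printed window.

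In the region over the Apobec3 start (544 bp, 10 CpGs) the fraction was 0.865 in the male and 0.895 in the female at 3 weeks, and 0.325 and 0.312 at 15 weeks. The region over the Ifitm3 start (18 CpGs) stood at 0.368 in both 3-week samples and at 0.102 and 0.118 at 15 weeks. At Tmem252 the levels were 0.328 and 0.409 at 3 weeks, and 0.0705 and 0.0268 at 15 weeks. All 3 regions passed the test as lower, by -0.562 ± 0.066, -0.258 ± 0.060 and -0.320 ± 0.049 (SE; limma across all regions, adjusted p = 7.2e-07, 0.00084 and 1.2e-05). The Foxn3 region stood at 0.324 and 0.420 at 3 weeks and at 0.333 and 0.404 at 15 weeks, so its groups overlapped. Of the 26 regions that touch any promoter window 19 were called lower and 7 were not called, and of the 13 that cover a whole window 11 were called lower, while 72.2% of all regions were. The windows were chosen for printing after their values were seen. A search of both strands for GAAA repeated after a gap of 2 bases, the core of an interferon-stimulated response element, found it in the windows of Ifitm3 and Gm35831 among these 13 regions and in 3.45% of 32544 promoters. The palindrome of TTC and GAA 3 bases apart, bound by STAT factors, was found in those of Ifitm3, Ptprj and Gm38883, and in 8.33% of all promoters. A match describes letters and not binding.

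Loss of methylation was broad. Averaged over regions, the fraction was 0.573 in the male and 0.582 in the female sample at 3 weeks, and 0.353 and 0.338 at 15 weeks. The 3-week mean was 0.578 ± 0.0062 and the 15-week mean 0.345 ± 0.0106 (SD, n = 2 each), a difference of -0.233. No 15-week sample reached a 3-week one, although an exact two-sided permutation test of 2 samples against 2 can go no lower than the p = 0.333 found. With 1 male and 1 female per age, the spread within an age rests on these few samples, any effect of sex included. The limma p-values take their spread from all 8 groups of the 20 samples and partly from other regions. In bulk samples a changed mix of cells and a change within cells cannot be told apart.

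By limma, with all 20 samples fitted together and Benjamini-Hochberg adjustment over 1195 regions at 0.05, 863 regions were lower at 15 weeks (72.2%), 11 were higher (0.921%) and 321 were not called. In 1006 regions (84.2%) both 15-week samples lay below both 3-week samples, and in 44 (3.68%) both lay above. Changes ran from -0.687 to 0.235 with a median of -0.233. A loss of more than 0.5 was seen at 75 regions, one between 0.3 and 0.5 at 331, and one between 0.1 and 0.3 at 531. Another 230 regions lay within 0.1 of no change and 28 gained more than 0.1. Regions called lower kept a median of 50.7% of their 3-week level (quartiles 36.7% and 64.3%), and 92 of them kept under 25%. High levels became rare, as 376 regions exceeded 0.7 at 3 weeks and 28 did at 15 weeks, while regions under 0.2 went from 49 to 279.

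**Figure D1:**
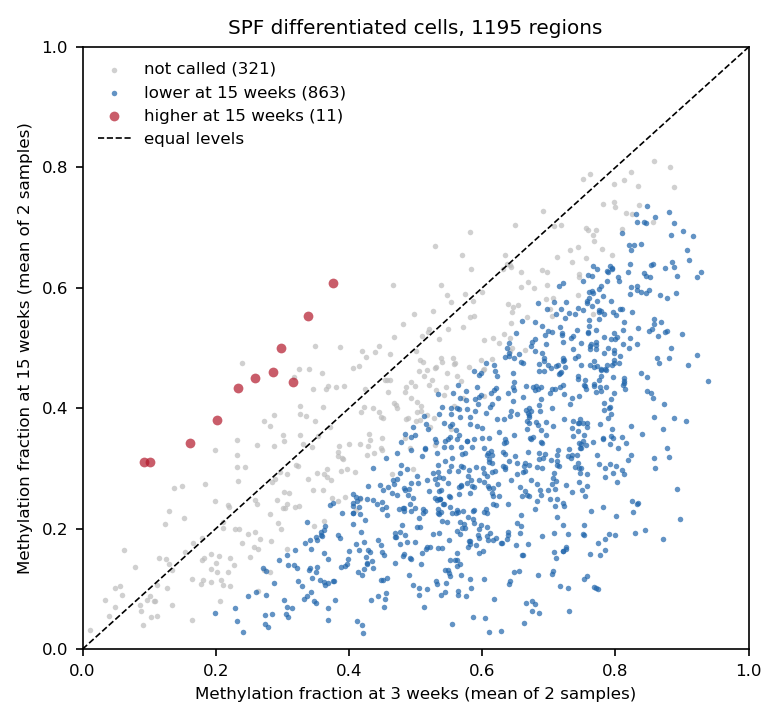
Mean methylation fraction of each region in SPF differentiated cells at 3 weeks (x axis) and 15 weeks (y axis), 2 samples per age, with blue points for the 863 regions called lower, red for the 11 called higher and grey for the 321 not called. Most points lie below the dashed line of equal levels, and the red points start under 0.4.

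The male and female pairs moved alike. The mean change was -0.221 between the male samples and -0.245 between the female ones. Both pairs fell at 1031 regions, both rose at 62 and they went opposite ways at 102, of which 0 were called. Per region the changes of the male and the female pair had a median gap of 0.0718. Across regions they correlated at r = 0.801 (Spearman rho 0.794), a description over regions that share the same 4 libraries.

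The largest loss at a named gene was beside Dlg1, which encodes a scaffold protein of cell polarity. The region (chr16:31661743-31662797, 18 CpGs, 646 bp from the gene) had 0.862 in the male and 0.879 in the female at 3 weeks, against 0.178 and 0.189 at 15 weeks, a change of -0.687 ± 0.056 (SE, limma adjusted p = 1.2e-08). Inside Ciita, the master activator of MHC class II genes (chr16:10490450-10491033, a proximal enhancer-like element in the table), 0.776 and 0.761 became 0.121 and 0.0866. In both genes the samples of an age lay close together and the ages far apart. Kcne3, a potassium channel subunit that takes part in colonic chloride secretion (chr7:100184383-100184893), had 0.852 and 0.837 at 3 weeks and 0.214 and 0.183 at 15 weeks. Irf1, a transcription factor of the interferon response (chr11:53773336-53774766, 27 CpGs), had 0.835 and 0.824, then 0.20 and 0.185. Rapgef2, an activator of Rap GTPases, went from 0.723 and 0.793 to 0.144 and 0.0987. Each of these groups was separated by a wide empty range, and the changes of Ciita, Kcne3, Irf1 and Rapgef2 were -0.665, -0.646, -0.637 and -0.636. Irf1 and Rapgef2 each had another region, also called lower, that lost less. These changed by -0.277 and -0.108, to 15-week means of 0.425 and 0.723.

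The rest of the 10 largest losses in genes had changes from -0.626 to -0.611. Hsd17b4, a peroxisomal enzyme of fatty acid oxidation on chromosome 18, stood at 0.867 and 0.917 at 3 weeks and 0.318 and 0.215 at 15 weeks. Plcb4, a phospholipase C, stood at 0.808 and 0.760, then 0.184 and 0.144. Mier1, a transcriptional corepressor, ended almost unmethylated, at 0.0417 and 0.0785 after 0.688 and 0.681. Cct6b, which encodes a chaperonin subunit, ended at 0.0419 and 0.0458 after 0.675 and 0.650. A region inside Ifi47, an interferon-inducible GTPase gene, with a promoter-like element and shared in the table with the olfactory receptor gene Olfr56, fell from 0.735 and 0.614 to 0.0451 and 0.0819. Adjusted p-values of the 10 regions ran from 8.1e-10 (Ciita) to 1.8e-06 (Plcb4) by limma, and all 10 stayed called when any 1 of the 4 samples was left out.

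**Figure D2:**
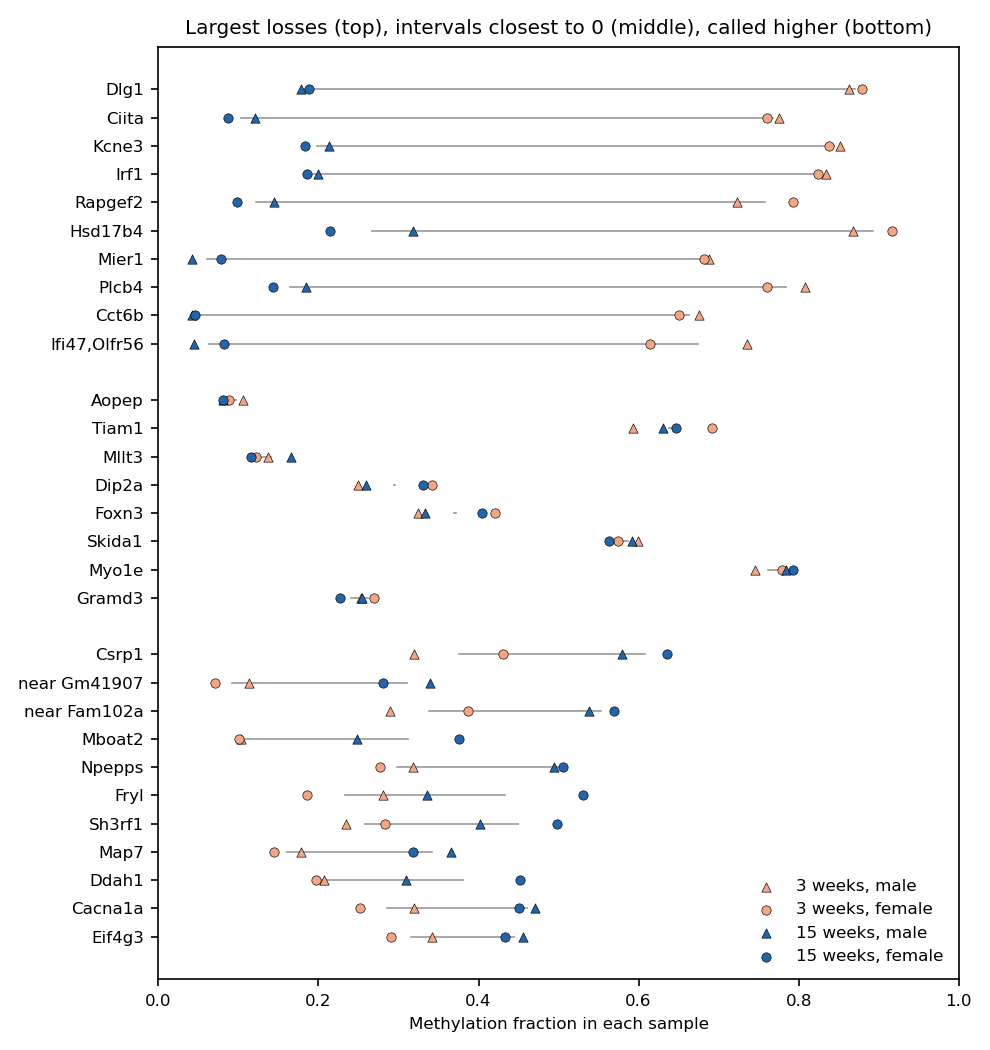
Methylation fraction (x axis) in each of the 4 SPF differentiated samples at the 10 largest losses in genes (top), the 8 regions whose interval stays closest to 0 (middle) and the 11 regions called higher (bottom), with triangles for males, circles for females, orange for 3 weeks and blue for 15 weeks. The grey line joins the age means, and at the losses the 2 ages are 0.611 to 0.687 apart.

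Outside genes the losses were as large. These regions were picked after their values were seen. Lncpint is a long non-coding RNA gene in the RefSeq annotation, which spans a region that the table leaves without a gene (chr6:31127203-31128017, distal enhancer-like), and there 0.896 and 0.897 became 0.255 and 0.177. A region 336 bp from Cd14, the co-receptor for bacterial lipopolysaccharide, on chromosome 18, fell from 0.790 and 0.753 to 0.0916 and 0.110. On chromosome 15 a pair of distal enhancer-like regions, at 85678491 (24946 bp from Lncppara) and 85665630 (25106 bp from D130051D11Rik), ended at 0.114 and 0.0858 and at 0.0590 and 0.0692, after 3-week levels of 0.771 and 0.775 and of 0.730 in both samples. A region 4798 bp from Gtsf1l went from 0.821 and 0.686 to 0.135 and 0.0976. Of the 100 largest called losses 34 lay outside genes and 58 overlapped an annotated regulatory element, while 440 and 588 of all 1195 regions did so.

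The lowest 15-week levels of all regions were at Dcun1d4, Bcl3, Optn and Sash1. Bcl3, a nuclear member of the IkB family, had 0.0207 in the male and 0.0371 in the female at 15 weeks after 0.303 and 0.179. Optn, an autophagy receptor gene, had 0.0382 and 0.0199 after 0.636 and 0.585. Sash1 and Dcun1d4 ended at 0.0405 and 0.0200 and at 0.0299 and 0.0245, from 3-week means of 0.628 and 0.422. All 4 were called lower. The highest 15-week levels were at Nudt5 (0.810 and 0.790), Dennd1b (0.831 and 0.753), Myo1e (0.785 and 0.793) and a region 17419 bp from Slc6a2 (0.825 and 0.795), none of them called.

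Only 11 regions were called higher. Csrp1, a LIM domain protein gene, had 0.320 and 0.431 at 3 weeks and 0.579 and 0.636 at 15 weeks, a change of 0.232 ± 0.067 (SE, limma adjusted p = 0.0043). Mboat2, a lysophospholipid acyltransferase gene, had 0.103 and 0.101, then 0.248 and 0.376. Npepps, an aminopeptidase gene, went from 0.318 and 0.277 to 0.494 and 0.505. In these 3 genes, as at all 11 regions, both 15-week samples lay above both 3-week samples. The calcium channel gene Cacna1a rose by 0.175 ± 0.044, from 0.319 and 0.252 to 0.471 and 0.450. Smaller or more scattered rises were called at Fryl (0.20 ± 0.071), Sh3rf1, a scaffold of JNK signalling (0.191 ± 0.059), Map7, a microtubule-binding protein gene (0.181 ± 0.062), Ddah1, which breaks down methylated arginines (0.179 ± 0.069), and Eif4g3, a translation initiation factor gene (0.128 ± 0.056). Fryl had the widest pair, with 0.336 in the male and 0.531 in the female at 15 weeks. Outside genes, a region 9535 bp from Gm41907 rose by 0.218 ± 0.082 and one 20778 bp from Fam102a by 0.215 ± 0.063. The 11 regions began between 0.0923 and 0.375 and ended between 0.310 and 0.608, and 10 of them hold the table's minimum of 10 CpGs.

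All 11 rises kept their direction when any 1 sample was left out, but whether they were called depended on the samples kept. Leaving out 1 sample left 6 to 8 regions called higher over the table. Npepps and Cacna1a stayed called in each alternative that included them, and Eif4g3 was lost whichever sample was removed. Just inside the threshold lay Rab12 (-0.110, adjusted p = 0.0489), Ptpn11 (-0.113) and Naa35 (-0.111), and just outside it regions near Gm33887 (-0.179, adjusted p = 0.0501), Acnat2 (-0.209) and Gm34472 (-0.137).

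A missed threshold does not show a stable level, so regions with no detectable change were taken by their 95% interval. It stayed within 0.15 of 0 at 45 regions (3.77%), and 276 regions were neither called nor that close to 0. The count fell to between 13 and 16 when 1 sample was left out, and none of the intervals stayed within 0.1. Regions with no detectable change were found at low, middle and high levels. Aopep, an aminopeptidase gene, had 0.106 and 0.0882 at 3 weeks and 0.0808 and 0.0813 at 15 weeks (chr13:63279339-63279723, interval -0.107 to 0.0749). Its 3-week mean was 0.097, so that interval does not exclude a full loss. Mllt3, part of a transcription elongation complex, stood at 0.136 and 0.122, then 0.165 and 0.116. Dip2a had 0.250 and 0.342, then 0.259 and 0.330, so that its male and female samples differed more than its ages. Skida1 had 0.599 and 0.574 against 0.592 and 0.563. At the high end, Tiam1, a Rac activator, had 0.593 and 0.692 against 0.630 and 0.646, and Myo1e, an unconventional myosin gene, 0.746 and 0.779 against 0.785 and 0.793. Gramd3, on chromosome 18, stood at 0.253 and 0.270, then 0.254 and 0.227. These values hold for the region and not the gene, as Gramd3 had 2 other regions called lower (-0.380 and -0.264) and Tiam1 had 1 (-0.242). With the Foxn3 region described above, changes at the 8 regions closest to 0 ran from -0.0206 (Gramd3) to 0.0265 (Myo1e).

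Regions of 1 gene did not always share a change. Of 99 genes with 2 or more regions, 53 had all of them called lower, 33 had some lower and some not called, 11 had none lower and 2, Eif4g3 and Sh3rf1, had 1 lower and 1 higher. Frmd4b, a FERM domain gene, had 5 of 5 regions lower, by -0.148 to -0.576. In its most affected region (chr6:97509272-97509508) 0.699 and 0.712 became 0.162 and 0.0984. Pla2g5, a secreted phospholipase A2 gene, had 3 of 4 lower, with the largest loss over a region of 40 CpGs (chr4:138834440-138836160) that went from 0.854 and 0.797 to 0.312 and 0.180. Its uncalled region stood at 0.504 and 0.589, then 0.497 and 0.422. Aopep had 6 of 8 lower, with a run of 4 from -0.389 to -0.249 between 63243049 and 63251873 on chromosome 13. The eighth was the low region with no detectable change described above. Eps8, an actin regulator of microvilli, had 3 of 5 lower, and Ptprj, a receptor tyrosine phosphatase gene, 2 of 4, with the outer regions at 0.0353 ± 0.058 and 0.0554 ± 0.061. Gm20388, a gene model that overlaps Usp10, Gse1, Irf8, Zcchc14, Jph3, Zfpm1 and Spire2, had 6 of 11 lower, among them the region in Irf8, an interferon regulatory factor (-0.270 ± 0.045). Among 148 pairs of neighbouring regions up to 25000 bp apart, both were lower in 101 and exactly 1 was lower in 34 with the other not called. The single pair with a rise was Npepps and a region near Kpnb1 10648 bp away, which fell by 0.178.

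**Figure D3:**
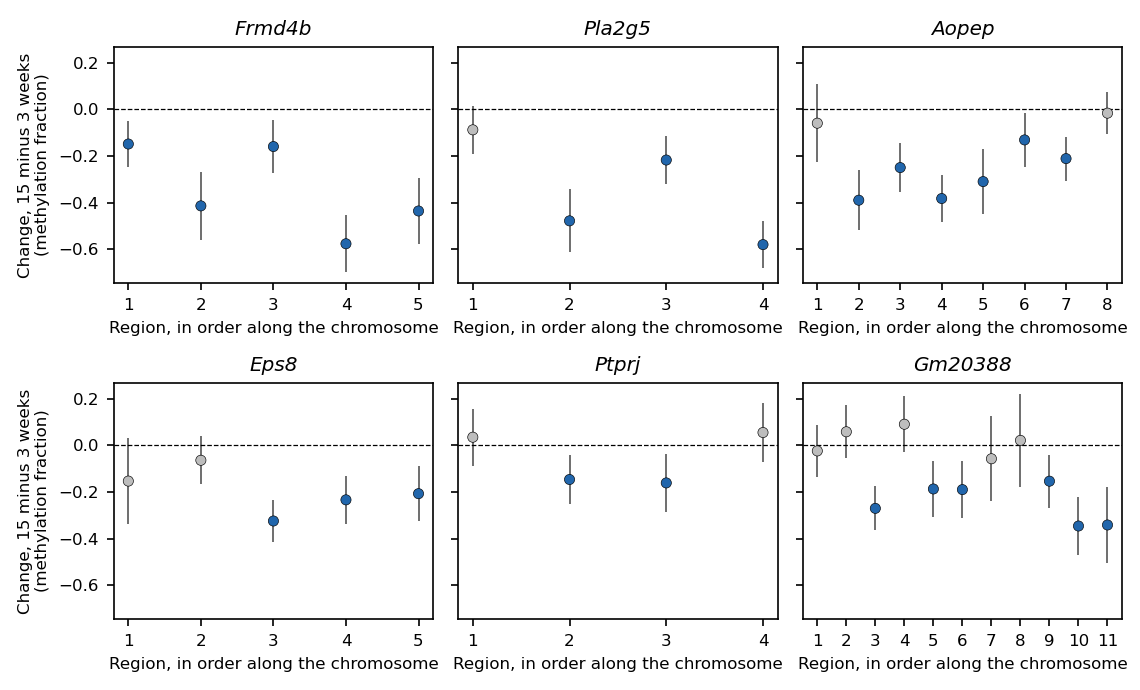
Change in methylation fraction from 3 to 15 weeks (y axis, limma estimate with its 95% interval) for each region of the 6 genes with 4 or more regions, in order along the chromosome (x axis), with blue for called lower and grey for not called. Frmd4b is lower at 5 of 5 regions, and Ptprj at the middle 2 of 4.

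Genes of antigen presentation had 10 regions, of which 9 were called lower (90%, against 72.2% of all regions), with a median change of -0.343 against -0.233 overall. Beside Ciita, the list holds H2-Aa, an MHC class II chain (chr17:34286327-34287649), at 0.777 and 0.665, then 0.176 and 0.151. Cd74, the class II invariant chain on chromosome 18, had 0.881 and 0.930, then 0.389 and 0.368, and B2m, the class I light chain, in a region shared with Patl2, had 0.778 and 0.826, then 0.288 and 0.268. A second region of Cd74, also called lower, changed by only -0.123 and had a 15-week mean of 0.709. Psmb8, a subunit of the immunoproteasome, changed by -0.371 and Nlrc5, the activator of MHC class I genes, by -0.316. H2-Ab1, the partner chain of H2-Aa, had a region that changed by -0.30 and one that was not called at 0.0999.

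Genes of interferon signalling had 12 of 13 regions lower, with a median of -0.301. Over all regions 72.2% were lower, with a median of -0.233. Irgm2, an interferon-inducible GTPase gene, went from 0.717 and 0.699 to 0.20 and 0.123, and Ifih1, a sensor of viral RNA, from 0.736 and 0.80 to 0.462 and 0.411. Tbk1, a kinase that activates interferon regulatory factors, changed by -0.301. The uncalled region lies at Irgm2 and Igtp (-0.0776). Epithelial defence genes had 5 of 5 lower, with a median of -0.292. Duoxa2, the maturation factor of the hydrogen peroxide-producing oxidase Duox2 (chr2:122299501-122300680), had 0.742 and 0.780, then 0.216 and 0.0991. Pigr, the transporter of IgA, changed by -0.268, Ceacam1 by -0.299 and Nox1, an oxidase gene on the X chromosome, by -0.292. Both regions of the microbial sensing list were lower, in Tnip1, an inhibitor of NF-kB signalling (-0.580), and Nfkb1 (-0.290).

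Stem cell marker genes had 4 of 5 regions lower, a share of 80% against 72.2% of all regions. Cdca7, whose product works with the chromatin remodeller Hells to maintain DNA methylation, had 0.618 and 0.554 at 3 weeks and 0.0559 and 0.0499 at 15 weeks. Axin2, a feedback inhibitor of Wnt signalling, changed by -0.383, Prom1 by -0.277 and Cd44 by -0.182. The uncalled region was another one of Cd44 (-0.0586). Wnt and Notch signalling genes had 1 of 4 lower, the co-receptor gene Lrp5 (-0.198), and Tcf7l2 and Jag1 were not called (-0.133 ± 0.068 and -0.104 ± 0.071). Goblet cell and mucus genes had 5 of 7 lower (71.4%), close to the share of all regions. The transmembrane mucin genes Muc1 and Muc13 had the largest losses, from 0.723 and 0.784 to 0.243 and 0.134 and from 0.579 and 0.718 to 0.134 and 0.121, while Galnt12 (-0.188) and Sytl2 (-0.169) lost less. The absorptive cell list held only Eps8 (3 of 5 lower) and Ezr, a microvillus protein gene that was not called (0.0507 ± 0.045).

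Among epithelial transcription factors Grhl2 (-0.320), Tead1 (-0.135) and Prdm1, a repressor that marks the suckling intestine (-0.126), were lower, 3 of 3. Lipid metabolism had 5 of 9 lower, with Cpt1a, the entry enzyme of mitochondrial fatty acid oxidation, at -0.290 beside Hsd17b4 and Pla2g5, and uncalled regions at Esrrg (0.0856 ± 0.062) and Pparg (0.0161). Adhesion genes had 3 of 3 lower (Itga6 at -0.325, Pard3 at -0.176, Cldn14 at -0.118), fetal and regenerative genes 4 of 4, among them Igf2bp2 (-0.474), Ly6e (-0.288) and Il33 (-0.234). Smad1, a mediator of BMP signals, changed by -0.418 and Setd7, a lysine methyltransferase gene, by -0.246, each the single region of its list. The stromal and endothelial list had 3 of 3 lower, Vwf, Pecam1 and Acta2, with a median of -0.270, and what other cells contributed to the samples was not tested. Lists of enteroendocrine and tuft cells, the circadian clock and immune cell markers had no region. These lists were written with earlier results of the data known, so their counts describe them and support nothing. With 72.2% of all regions called lower, a list of few regions can be lower throughout without standing out.

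Imprinted genes, which carry methylation on 1 parental copy, were looked at after values were seen. Their 7 regions, at Igf2r, Gnas, Mest, Peg10 with Sgce, and Usp29 with Peg3, had means of 0.321 to 0.569 at 3 weeks and 0.295 to 0.504 at 15 weeks. None was called, but errors were wide (SE 0.0823 to 0.133) and none had an interval within 0.15 of 0. Mest had 0.732 in the male and 0.354 in the female at 3 weeks, so its samples of 1 age differed more than its age means. On the X chromosome 3 of 7 regions were lower.

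The level that a region had in mice without a microbiota at 3 weeks, from libraries outside this comparison, went with the size of the loss up to 0.8. Of 40 regions under 0.2 in GF differentiated cells at 3 weeks, 4 were called lower in SPF differentiated cells (10%), and the median change was 0.00278. The share was 41.3% of 150 regions from 0.2 to 0.4, 65.8% of 330 from 0.4 to 0.6, 84.7% of 464 from 0.6 to 0.8 and 88.6% of 211 above 0.8. The median change was -0.292 both from 0.6 to 0.8 and above 0.8, so the median loss did not grow in the highest class. A region cannot lose more than it has, so low regions have less room to fall. The 11 rises all lay under 0.6 on that scale.

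**Figure D4:**
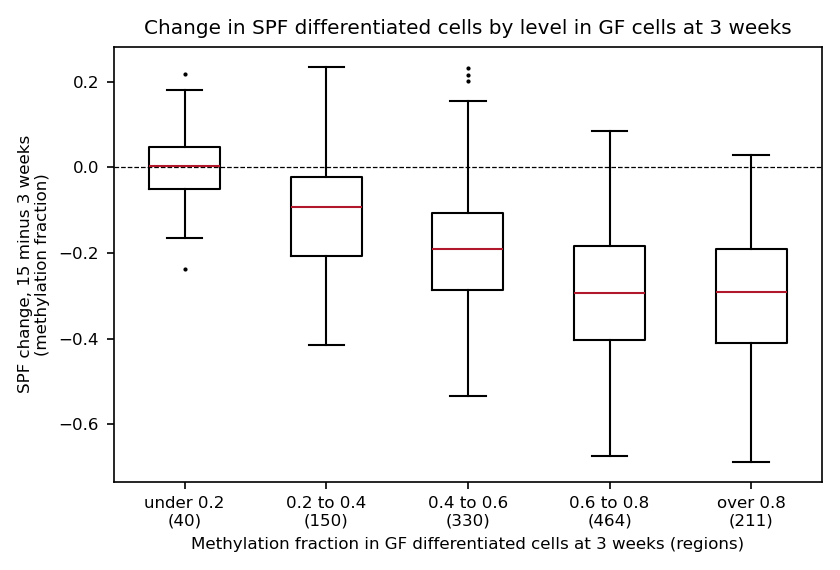
Change in methylation fraction from 3 to 15 weeks in SPF differentiated cells (y axis) by the level of the region in GF differentiated cells at 3 weeks (x axis, number of regions in brackets), with boxes from the lower to the upper quartile, a red median line, whiskers to 1.5 times the box height and points beyond. The median moves from 0.00278 in the lowest class to -0.292 from 0.6 to 0.8, and is also -0.292 in the highest.

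Distal enhancer-like elements had 75.1% of 421 regions lower, proximal enhancer-like ones 70.7% of 116, and regions with no annotated element 71.3% of 607. Promoter-like elements (58.3% of 24) and elements with DNase and H3K4me3 signal (57.1% of 21) had lower shares on few regions. All 6 CTCF-only elements were lower. Gene bodies (71.2% of 709), regions near a start (69.6% of 46) and regions outside genes (74.1% of 440) were close to the 72.2% of all. Regions not called were denser in CpGs, with a median of 2.55 per 100 bp against 2.02 in those called lower, and began lower, at a median of 0.431 against 0.652. The share called lower also followed the authors' deposited difference, from 277 of 479 regions above -0.2 to 29 of 29 below -0.4. As the regions appear to have been picked on that difference, this gradient is not independent of the choice. The counts and medians of this paragraph had no test.

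Stem cells of SPF mice also had lower levels at 15 weeks. Their mean over regions went from 0.572 to 0.354, with 831 regions called lower (69.5%) and 12 higher (1%). The regions may have been picked for low methylation in these 15-week stem samples. The direction of the stem cell change is therefore not independent of that choice. The 3-week SPF stem and differentiated samples share identifiers, the 15-week ones do not, and the fit treats all samples as separate. A direct test of the difference between the 2 age changes called 0 of 1195 regions in either direction by limma, with 54 regions at an unadjusted p under 0.05, 34 of them with the more negative change in differentiated cells. The smallest adjusted p was 0.951. That does not show equal change, since the median standard error of the difference was 0.0823 and its median size 0.0594. The widest gaps were near Gas1 (0.329 ± 0.16), near LOC115490344 (-0.312 ± 0.14), in Ldlrad3 (0.310 ± 0.12) and near 1810073O08Rik (-0.304 ± 0.098). In Ldlrad3, 0.627 and 0.658 became 0.495 and 0.496 in differentiated cells, while the stem cell mean went from 0.747 to 0.291. Near 1810073O08Rik differentiated cells went from 0.428 and 0.605 to 0.353 and 0.208, and the stem cell mean from 0.369 to 0.437.

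Differentiated cells of GF mice had a smaller mean loss over the same ages. Their mean went from 0.608 ± 0.0040 (SD, n = 2) to 0.567 ± 0.0046 (n = 4), with 215 regions lower (18%) and 80 higher (6.69%). The test of the difference between age changes found the SPF change to be the more negative at 567 regions (47.4%) and the less negative at 1 (0.0837%), and the mean difference was -0.192. Since the regions appear to have been picked for SPF below GF at 15 weeks, the direction of these calls is largely set by that choice, and their number is a description. At Ciita the GF mean went from 0.731 to 0.780, and the SPF change was more negative by -0.714 (adjusted p = 4.2e-08). At Dlg1 the GF mean went from 0.855 to 0.813, a difference of -0.645 from the SPF change, and at Hsd17b4 from 0.943 to 0.912. H2-Aa (0.714 to 0.739) and Cd74 (0.906 to 0.893) also stayed near their 3-week level in GF cells.

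Other large losses in SPF cells had a GF counterpart. Kcne3 went from 0.808 to 0.443 in GF cells, a change of -0.364 ± 0.045. The pair of chromosome 15 regions near Lncppara and D130051D11Rik went from 0.725 to 0.271 and from 0.775 to 0.211, and Cdca7 from 0.539 to 0.197. Sash1 (-0.394), Dcun1d4 (-0.375) and Smad1 (-0.290) were also called lower in GF cells. In all, 210 of the 863 regions lower in SPF were called lower in GF cells (24.3%), which is 97.7% of the 215 GF calls. Over all regions 18% were called lower in GF and 72.2% in SPF differentiated cells. The regions appear to have been picked for SPF below GF cells at 15 weeks, so this overlap is not independent of that choice. At 13 regions SPF cells were called lower and GF cells higher. Prdm1 and Tead1 were among these, with GF means of 0.577 and 0.821 for Prdm1 and of 0.501 and 0.697 for Tead1, at 3 and 15 weeks.

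The 11 regions that rose in SPF differentiated cells were also called higher in GF differentiated cells, 11 of 11, by 0.166 to 0.433. Over all regions 6.69% were called higher in GF differentiated cells. The regions appear to have been picked for SPF below GF cells at 15 weeks. A region that rose in SPF cells would then tend to rise in GF cells too, so the 11 of 11 is a description. In SPF stem cells the 15-week mean was higher at 11 of these 11, and at 106 of all 1195 regions. Npepps was almost level there (0.363 and 0.367). The stem rise was not called at Npepps, Fryl, Eif4g3, Ddah1 and Csrp1 (limma adjusted p from 0.092 at Csrp1 to 0.93 at Npepps). None of the 11 differed in age change between SPF and GF by the test, which does not show equal change. The SPF change minus the GF change ran from -0.215 ± 0.109 (SE) near Gm41907 to 0.0362 ± 0.066 at Npepps. The same choice of regions favours a negative sign of this difference. It was positive only at Npepps and Fryl (0.0220 ± 0.093) and negative at the others. At Cacna1a it was -0.136 ± 0.059 (limma adjusted p = 0.062). The region near Gm41907 reached 0.596 in GF cells from 0.163, against 0.310 from 0.0923 in SPF cells, and Mboat2 reached 0.593 from 0.222. Among the 45 regions with no detectable change, to which the same limit applies, 13 were called higher in GF cells. Tiam1 was one, with GF means of 0.662 and 0.837, and its age change differed between SPF and GF by -0.179 (adjusted p = 0.033). The region with the less negative change in SPF lies in Tmsb10, a thymosin gene, chosen after its values were seen. It had 0.174 and 0.0495 at 3 weeks and 0.0347 and 0.0763 at 15 weeks in SPF cells, and GF means of 0.620 and 0.209.

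**Figure D5:**
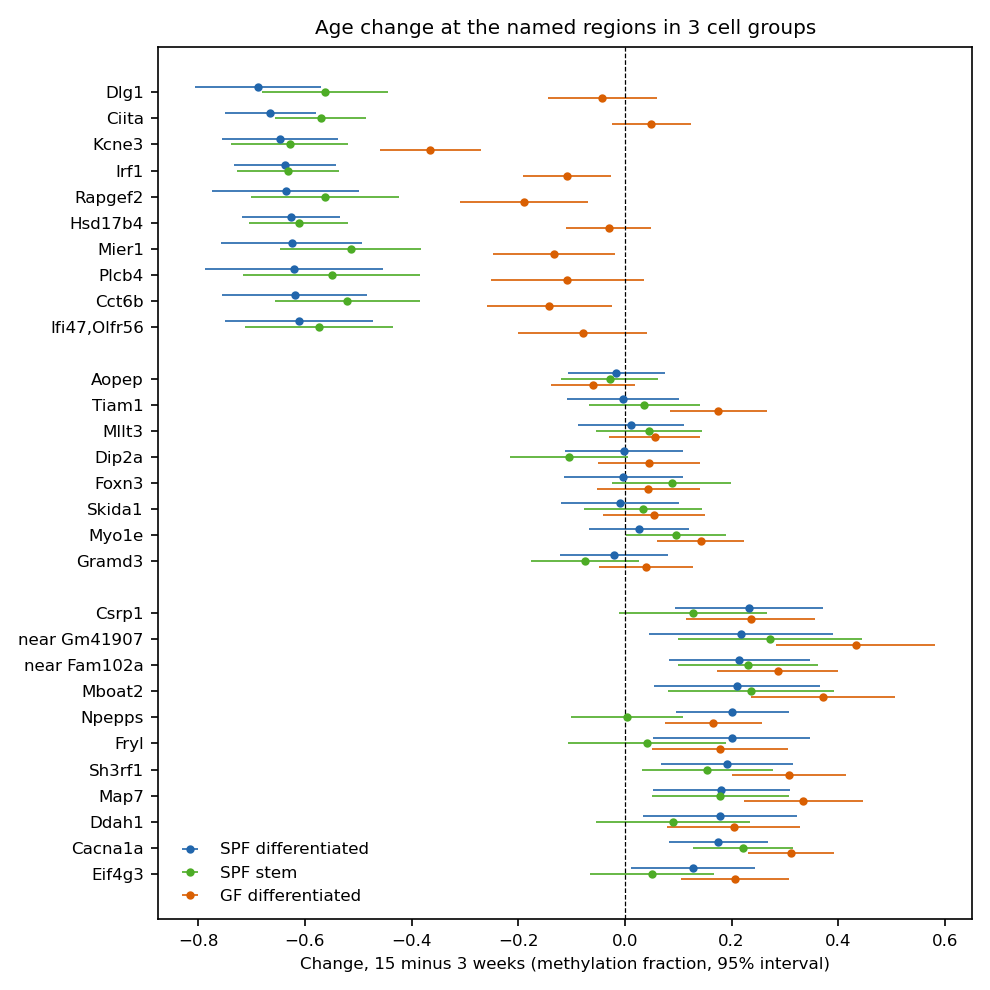
Change in methylation fraction from 3 to 15 weeks (x axis, limma estimate with 95% interval) in SPF differentiated (blue), SPF stem (green) and GF differentiated cells (orange) at the largest losses in genes (top), the regions closest to 0 (middle) and the regions called higher (bottom). At the losses blue and green lie together and orange lies nearer 0, with Kcne3 at -0.364 the farthest orange point among them. At the rises all 3 lie above 0. The regions may have been picked for low methylation in SPF stem cells at 15 weeks, so these positions are not independent of that choice.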

How the data were processed

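The 20 samples were assayed by whole-genome bisulfite sequencing, and 4 of them are SPF differentiated cells at 3 and 15 weeks. Per the labels' protocols, genomic DNA was made into xGen Methyl-Seq libraries after EZ DNA Methylation-Direct bisulfite treatment, and per the submitters' processing notes BSMAP 2.90 and the mm10 build were used. Nothing at hand states the region caller or any coverage filter. Values are fractions per region and sample, as deposited. The authors deposited also a signed difference score, a p-value and a CpG number (10 to 49) per region, used here to describe or filter regions, apart from the p-value, which was not used. Coverage is unknown, so no interval is given for a single fraction, and the number of samples limits the precision. Coordinates are printed as deposited.

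The 8 groups were fitted together with limma 3.58.1 (R 4.3.3), all 20 samples and no covariate, and two-sided p-values were adjusted by Benjamini-Hochberg over 1195 regions. Contrasts were the age change in SPF differentiated cells and its difference from those in SPF stem and GF differentiated cells. On simulated data the fit called 18%, 62%, 92% and 98% of regions changed by 0.1, 0.2, 0.3 and 0.4, and 7 of 995 unchanged ones. Far fewer regions, 321, were not called in the real data. The adjustment depends on that share, so these rates need not hold for the real fit. Alternatives were other sample sets, a logit scale (fractions held between 0.01 and 0.99), CpG, difference and size minimums, sex as a covariate, a replicate block and leaving out each sample. Replicates were compared first: samples of 1 age differed by a mean of 0.0576 or 0.0645 per region, so none was a duplicate.

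Named are the 10 largest losses in genes, each region called higher, the 8 intervals closest to 0, genes with 4 or more regions, up to 4 genes of each of 18 lists, the 4 widest gaps from stem cells and the extreme levels at 15 weeks. Samples, lists and rules were chosen with earlier results of these data known. Sequences come from RefSeq promoter windows (GRCm38.p6). Of 666 gene symbols 657 matched RefSeq. Sequences of the regions themselves are not used here.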

Additional observations from a re-analysis of the deposited data

Results flagged for a closer look

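The age change in differentiated cells differed between SPF and GF mice by limma's interaction test (Benjamini-Hochberg adjusted), more negative in SPF at 567 regions and less negative at 1. Each of the 10 largest losses in genes was among the former, as were 47.4% of all regions. Of the regions called lower, 60.7% were called in this test, in either direction. The 10 were picked for their SPF change, which is part of the difference tested, so their count supports nothing. The SPF change was more negative than the GF change by -0.714 at Ciita, -0.645 at Dlg1, -0.595 at Hsd17b4, -0.532 at Ifi47 and Olfr56, -0.528 at Irf1, -0.513 at Plcb4, -0.492 at Mier1, -0.477 at Cct6b, -0.447 at Rapgef2 and -0.282 at Kcne3. Tiam1, with no detectable change in SPF, differed by -0.179. The regions appear to have been picked for SPF below GF cells at 15 weeks, which favours a more negative SPF change, so the direction of these differences is not independent evidence.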

How the results depend on the processing

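The mean change of -0.233 ran from -0.240 to -0.225 when a sample was left out. Counts called lower ran from 731 to 775 and higher from 6 to 8 without 1 sample, and regions with an interval close to 0 from 13 to 16. With only the 4 SPF differentiated samples 18 regions were higher and 79 close to 0. With at least 15 CpGs, which leaves 181 regions, 141 were lower, 1 higher and 10 close to 0. With a deposited difference of at least 0.2, which leaves 716 regions, 4 were higher and 15 close to 0. A change of at least 0.2 left 5 higher. Interval limits of 0.1 and 0.2 gave 0 and 154 regions close to 0. A replicate block over the 4 samples gave 908 lower, 21 higher and 82 close to 0, but same-numbered samples share only a number and a sex (correlation of deviations 0.0776). Regions with a less negative change in SPF than in GF cells numbered 3 with only the differentiated samples and 0 on the logit scale, and those with a more negative change 386 to 488 without 1 sample. Leaving out the X chromosome, added after seeing the data, gave 860 lower and 12 higher. No named region changed direction past the threshold. The 15-week and 3-week groups have 2 samples each and depth is unknown, which limits small changes most.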
